A study of Mus musculus with 12 samples.

Results

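Crh, Crhbp, Crhr1, Crhr2, Nr3c1, Nr3c2 and Hsd11b1, 7 genes of the corticotropin-releasing hormone (CRH) system and of corticosteroid sensing, were followed in mouse ventral hippocampus. They were taken by gene symbol, and each of the 7 symbols matched 1 of the 54532 genes in the deposited tables. RNA sequencing had been done on 12 libraries in 4 groups of 3. SSDS-shACOT12 mice were exposed to SSDS with ACOT12, an enzyme that hydrolyses acetyl-CoA, knocked down in the liver. SSDS-GFP mice carried AAV8-eGFP and were also exposed to SSDS. CSDS mice were exposed to CSDS, and Control mice had no treatment. The labels give only these abbreviations, which elsewhere denote social defeat stress of a chronic (CSDS) or a subthreshold (SSDS) kind. All mice were labelled WT, with no strain, sex or age given. The column names of both SSDS groups carry the letters TBG, which in AAV vectors usually mark a promoter active in hepatocytes. No group had SSDS without a virus, and no virus is given for CSDS or Control mice, so virus and SSDS cannot be told apart where an SSDS group is set against Control. The labels do not say that libraries of a group came from separate mice, so each p-value reflects library-to-library spread, which may be technical.

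CRH is a stress peptide that the hypothalamus sends to the pituitary to start glucocorticoid release, and interneurons of the hippocampus also make it as a local transmitter. It acts on the receptors CRHR1 and CRHR2, and the secreted protein CRHBP binds it and limits its action. Circulating corticosterone returns to the hippocampus, where it binds the high-affinity mineralocorticoid receptor (Nr3c2) and the lower-affinity glucocorticoid receptor (Nr3c1), and the enzyme encoded by Hsd11b1 regenerates active hormone inside cells.

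Library totals ran from 14656714 to 17694570 counts. Levels are given as CPM (counts scaled to a common library size). In a principal component analysis of log2 CPM, 3 libraries stood apart on the first component (SSDS-shACOT12 3, SSDS-shACOT12 1 and SSDS-GFP 3, with the highest scores, 35.7 to 63.1, against at most 5.82 elsewhere), and results are given with and without them where they matter. Mitochondrial genes took 3.23% and 4.31% of counts in SSDS-shACOT12 1 and 3 and 6.31% to 9.24% in the other libraries. Excitatory neuron markers summed to 5784 to 8600 CPM in SSDS-shACOT12, 5505 to 7715 CPM in SSDS-GFP, 6465 to 7408 CPM in CSDS and 7164 to 8469 CPM in Control. Dentate gyrus granule cell markers, which define hippocampal tissue, had counts in every library. They summed to 389 to 695 CPM in SSDS-shACOT12, 637 to 691 CPM in SSDS-GFP, 553 to 725 CPM in CSDS and 828 to 981 CPM in Control. C1ql2 alone took 74.0 to 322 CPM in SSDS-shACOT12. The mean centred log2 CPM of the 8 markers was -0.86 to -0.14 in SSDS-shACOT12 and -0.10 to 0.09 in SSDS-GFP. It was -0.18 to 0.20 in CSDS and 0.47 to 0.60 in Control. In SSDS-shACOT12 against Control, 7 of 8 were lower (median log2 fold change -0.96, beside 0.01 over all tested genes), and 1 was called lower, beside 5 of 16915.

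All 7 genes were detected in every library, and they differed widely in level. On the FPKM scale, which accounts for gene length, the levels over the 12 libraries averaged 28.2 ± 7.96 for Nr3c2, 15.5 ± 3.85 for Crhbp, 10.5 ± 2.41 for Nr3c1, 9.29 ± 1.03 for Hsd11b1, 4.94 ± 1.46 for Crhr1, 1.34 ± 0.58 for Crh and 0.337 ± 0.174 for Crhr2 (SD over 12 libraries). The upper part of this order was not fixed. Nr3c2 was above Crhbp in 11 of 12 libraries, Crhbp above Nr3c1 in 10 and Nr3c1 above Hsd11b1 in 10. The lower part held in each library: Hsd11b1 was above Crhr1, Crhr1 above Crh and Crh above Crhr2 in 12 of 12 libraries. Crh and Crhr2 rested on 17 to 58 and 13 to 60 counts per library, so their values were the least precise, while Nr3c2 had 1635 to 4881 counts. The SD of log2 CPM over all 12 libraries was 0.43 for Nr3c2 and 0.39 for Nr3c1, larger than in 92.8% and 91.2% of the 500 tested genes nearest to each in mean level. For Hsd11b1 it was 0.16, larger than in only 23.4% of its 500 neighbours.

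**Figure D1:**
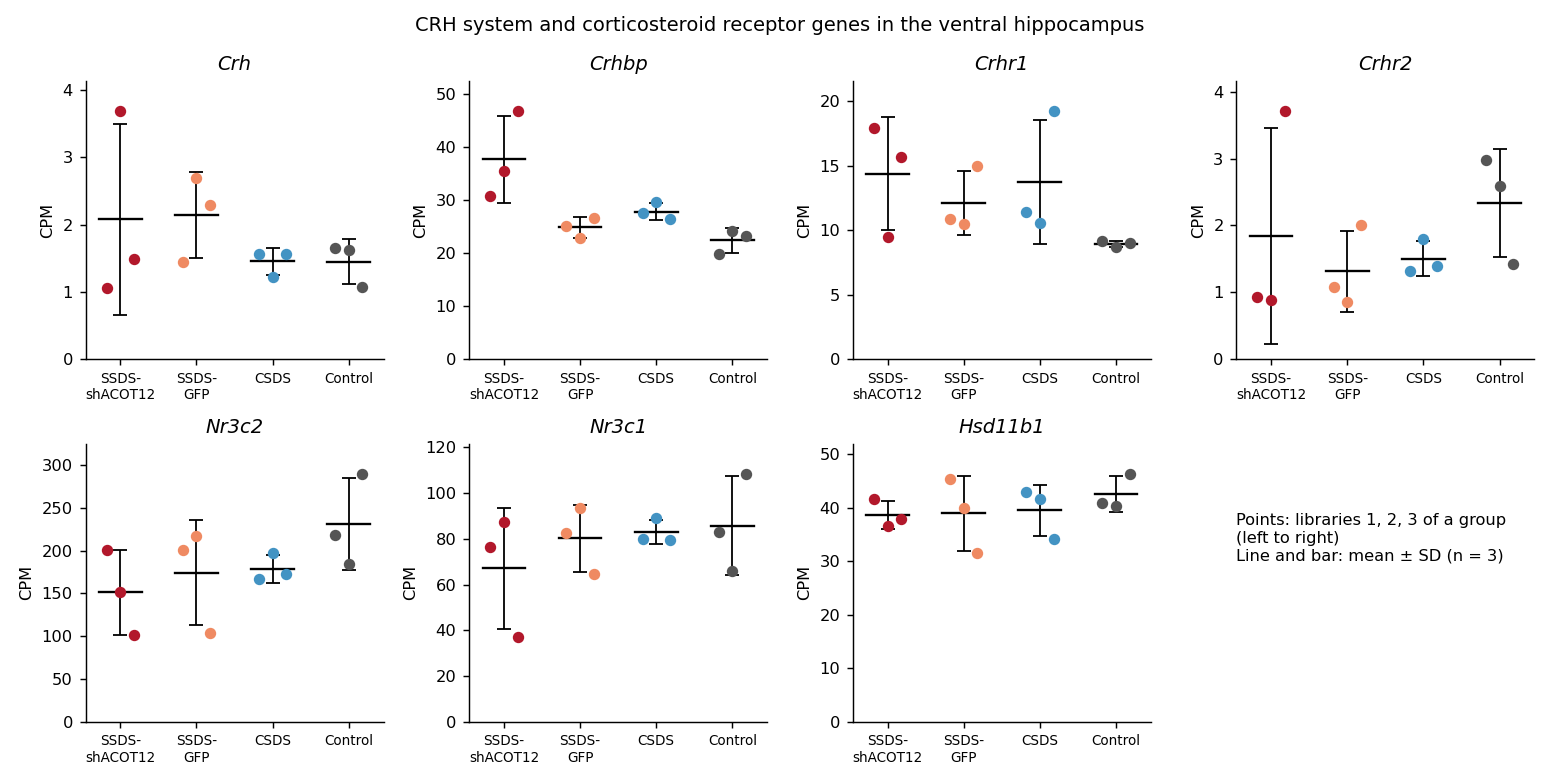
CPM (vertical axes, from 0) of the 7 genes in each of the 12 libraries, by group; points are libraries 1, 2 and 3 from left to right, and lines and bars are the mean ± SD (n = 3). The 3 SSDS-shACOT12 libraries lie highest for Crhbp, at 30.7 to 46.8 CPM, and the 3 Control libraries lie lowest for Crhr1, at 8.70 to 9.15 CPM.

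Crh, the ligand (ENSMUSG00000049796, chromosome 3, 19693401 to 19695396, minus strand, mm10), was measured at 1.05, 3.69 and 1.49 CPM in SSDS-shACOT12 1, 2 and 3. It was at 1.44, 2.69 and 2.29 CPM in SSDS-GFP, at 1.57, 1.22 and 1.57 CPM in CSDS and at 1.66, 1.62 and 1.07 CPM in Control. SSDS-shACOT12 2 had the highest value of all libraries and SSDS-shACOT12 1 the lowest, so the group with knockdown spanned every other group. The log2 fold change was -0.05 ± 0.42 for SSDS-shACOT12 against SSDS-GFP (SE, 95% interval -0.96 to 0.86) and 0.004 ± 0.44 for CSDS against Control (-0.95 to 0.95). At this depth an interval of nearly 2-fold in either direction remained, so a change of that size was not detectable. Without the 3 libraries with the highest scores on the first component, 1 SSDS-shACOT12 library was left and the log2 fold change against SSDS-GFP was 0.83 (adjusted p = 0.699, edgeR).

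Crhbp, the secreted binding protein (ENSMUSG00000021680, chromosome 13, 95431371 to 95444924, minus strand), was the member whose groups lay furthest apart. It was measured at 30.7, 35.4 and 46.8 CPM in SSDS-shACOT12, at 25.1, 22.8 and 26.6 CPM in SSDS-GFP, at 27.4, 29.6 and 26.4 CPM in CSDS and at 19.7, 24.2 and 23.2 CPM in Control. Each SSDS-shACOT12 library was above all 9 others, a pattern that 0.497% of the 16915 tested genes showed. The highest value, in SSDS-shACOT12 3, came from 755 counts, and the lowest, in Control 1, from 297 counts. CSDS libraries also lay above Control without overlap, as 10.2% of tested genes did, while SSDS-GFP overlapped Control.

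The comparison of the SSDS groups asks what the liver knockdown adds, but no group is labelled as having a control short hairpin RNA. Knockdown of ACOT12 and other differences between the 2 vectors therefore cannot be told apart. Crhbp averaged 37.6 ± 8.27 CPM in SSDS-shACOT12 and 24.8 ± 1.95 CPM in SSDS-GFP (SD, n = 3 each). The log2 fold change was 0.60 ± 0.16 (SE, 95% interval 0.26 to 0.93), and Crhbp ranked 7th of 16915 genes by p. It did not pass over all genes (adjusted p = 0.803, edgeR), and 0% of tested genes did in this contrast. Both groups were apart, as 2.23% of tested genes were in this direction. Crhbp passed when SSDS-shACOT12 2 was left out (log2 fold change 0.63, adjusted p = 0.0448, edgeR), a setting in which 985 genes, 5.7% of those tested, were called. It passed in no other of the 24 alternatives run, over which the log2 fold change was 0.42 to 0.72. Without single libraries the adjusted p reached 0.9999 (edgeR).

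Set against Control, the log2 fold change of Crhbp in SSDS-shACOT12 was 0.75 ± 0.16 (SE, 95% interval 0.41 to 1.09), a 1.68-fold higher level, with adjusted p = 0.0531 (edgeR), and 0.0828% of tested genes were called; 14% lay above Control without overlap, as Crhbp did. Other fits put it on either side of the threshold. The adjusted p was 0.00198 with the DESeq2 Wald test, 0.00634 with limma-voom and library weights and 0.00312 with edgeR and no filter. In those 3 fits 11.3%, 24.7% and 5.31% of all tested genes were called. Over all alternatives the adjusted p reached 0.235. Without the 3 libraries with the highest scores, SSDS-shACOT12 2 was the only library of its group, and the log2 fold change of Crhbp was 0.675. The log2 fold change stayed between 0.55 and 0.88 in the 23 alternatives run. The other differences from Control were smaller, at 0.31 ± 0.16 for CSDS (adjusted p = 0.867) and 0.15 ± 0.16 for SSDS-GFP (adjusted p = 0.687). These 3 contrasts share the Control libraries. Tested genes of similar length were also above Control in SSDS-shACOT12, with a median log2 fold change of 0.21 over the 500 nearest to Crhbp in length. With each library's trend in gene length removed, the log2 fold change of Crhbp was 0.57 (adjusted p = 0.0668, limma-trend).

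Promoter windows from RefSeq (GRCm38.p6, 250 bases before to 50 after the annotated start) were examined for 5 of the 7 genes. Crh had no entry, and Nr3c1 was left out of the search. The windows of Crhbp and Crhr1 are shown because these were the members with groups that did not overlap. The letters TATAAA (the letters of a TATA box) and TGACG (the core of the cAMP response element, CRE) were searched on both strands and are in capitals, as were the full CRE TGACGTCA and the glucocorticoid response core AGAACA, which neither window held.
Crhbp, chr13:95444782-95445081, minus strand: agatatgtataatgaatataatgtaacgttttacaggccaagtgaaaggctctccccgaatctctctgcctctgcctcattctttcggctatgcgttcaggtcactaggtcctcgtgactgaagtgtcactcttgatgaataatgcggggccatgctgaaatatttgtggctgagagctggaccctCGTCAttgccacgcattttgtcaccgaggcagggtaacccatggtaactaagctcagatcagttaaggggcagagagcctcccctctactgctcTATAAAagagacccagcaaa
Crhr1, chr11:104132531-104132830, plus strand: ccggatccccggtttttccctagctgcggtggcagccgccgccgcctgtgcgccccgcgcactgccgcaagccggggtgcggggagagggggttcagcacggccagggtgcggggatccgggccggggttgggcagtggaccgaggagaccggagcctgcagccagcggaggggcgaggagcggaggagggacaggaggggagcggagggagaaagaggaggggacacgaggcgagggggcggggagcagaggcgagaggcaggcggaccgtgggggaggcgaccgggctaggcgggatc
The Crhbp window had 48.0% G and C and 9 CG pairs. Its CRE core, read on the reverse strand, began at base 187 of 300 and its TATA letters at base 281, after the RefSeq start and not before it as in a TATA box. The Crhr1 window had 75% G and C, more than 96.1% of all windows, with 31 CG pairs and none of the 4 motifs. Over all 32851 windows, 13.6% held TATAAA, 20.8% TGACG, 1.79% TGACGTCA and 19.0% AGAACA, on either strand and at any overlap.

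Crhr1, the main CRH receptor of the forebrain (ENSMUSG00000018634, chromosome 11, 104132855 to 104175523, plus strand), was lowest in Control. It was measured at 17.9, 9.49 and 15.7 CPM in SSDS-shACOT12, at 10.8, 10.5 and 14.98 CPM in SSDS-GFP, at 11.4, 10.6 and 19.3 CPM in CSDS and at 9.15, 8.70 and 8.98 CPM in Control. Every library of the other 3 groups was above all Control libraries, which 3.50% of tested genes showed. The Control libraries differed little, with an SD of 0.04 in log2 CPM against a median of 0.16 over tested genes, whereas each other group had a single library or a pair well above the rest. The margin was narrow, since SSDS-shACOT12 2 was only just above Control 1.

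Crhr1 did not pass in any of the 4 contrasts. The log2 fold change against Control was 0.68 ± 0.27 in SSDS-shACOT12 (SE, adjusted p = 0.145, edgeR), 0.44 ± 0.27 in SSDS-GFP (adjusted p = 0.456, edgeR; 0.0946% of tested genes called and 12.5% above Control without overlap) and 0.62 ± 0.27 in CSDS (adjusted p = 0.849, edgeR; 0% called). For CSDS the value depended on 1 library, CSDS 3, without which it was 0.30. Markers of blood cells summed to 332 to 386 CPM in CSDS and 87.8 to 120.1 CPM in Control, and their part in the CSDS values was not tested. For SSDS-shACOT12 against Control, leaving out SSDS-shACOT12 2 gave 0.90 (adjusted p = 0.0193, edgeR), and limma-voom with library weights gave 0.82 (adjusted p = 0.0292). In those fits 24.5% and 24.7% of all tested genes were called. Without the 3 libraries with the highest scores on the first component it was 0.10 (adjusted p = 0.893), with SSDS-shACOT12 2 as the only library of its group. Against SSDS-GFP, SSDS-shACOT12 differed by 0.25 ± 0.26 with overlapping groups.

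Crhr2, the second CRH receptor (ENSMUSG00000003476, chromosome 6, 55090049 to 55133016, minus strand), which also binds the urocortins, was measured at 0.928, 0.891 and 3.72 CPM in SSDS-shACOT12. It was at 1.08, 0.853 and 2.00 CPM in SSDS-GFP, at 1.32, 1.80 and 1.39 CPM in CSDS and at 2.98, 2.60 and 1.43 CPM in Control. All groups overlapped, and the highest library, SSDS-shACOT12 3, stood beside the lowest ones in its own group. Log2 fold changes against Control were -0.33 ± 0.52, -0.81 ± 0.53 and -0.63 ± 0.53 in SSDS-shACOT12, SSDS-GFP and CSDS (SE), and 0.48 ± 0.54 between SSDS-shACOT12 and SSDS-GFP, with adjusted p from 0.491 to 0.922 (edgeR). Choroid plexus is a known site of Crhr2, and choroid plexus and ependymal markers summed to 29.9 to 50.04 CPM in SSDS-shACOT12, 22.6 to 63.7 CPM in SSDS-GFP, 21.4 to 37.7 CPM in CSDS and 565, 179.6 and 46.3 CPM in Control 1, 2 and 3. Their part in the Crhr2 values was not tested.

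**Figure D2:**
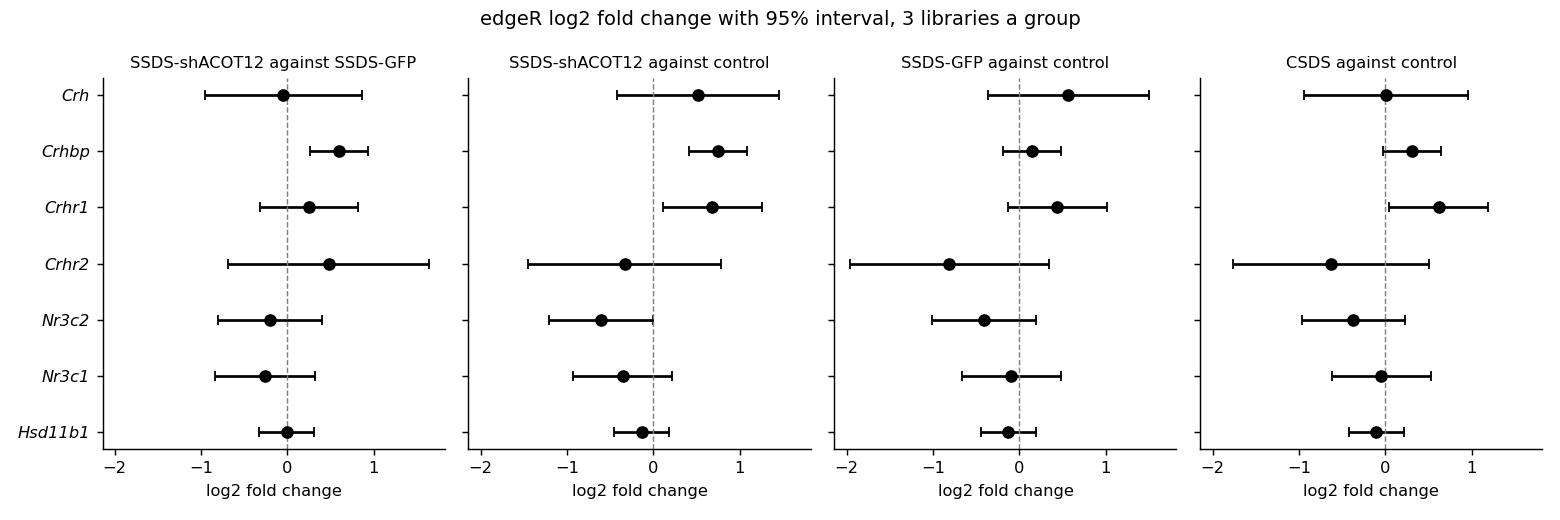
Log2 fold change (horizontal axes) of the 7 genes in the 4 contrasts, with 95% intervals from the edgeR fit of all 12 libraries (3 a group). The interval of Crhbp excludes 0 for SSDS-shACOT12 against SSDS-GFP, at 0.26 to 0.93, and against Control, at 0.41 to 1.09, and the intervals of Crh and Crhr2 span about 2 log2 units. For Crhr1 it also excludes 0 in SSDS-shACOT12 against Control, at 0.11 to 1.26, and in CSDS against Control, at 0.045 to 1.19. For Nr3c2 it does so in SSDS-shACOT12 against Control, at -1.21 to -0.01.

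The mineralocorticoid receptor gene Nr3c2 (ENSMUSG00000031618, chromosome 8, 76899442 to 77245012, plus strand) was measured at 201, 152 and 101 CPM in SSDS-shACOT12, at 201, 217 and 104 CPM in SSDS-GFP, at 167, 198 and 172 CPM in CSDS and at 218, 185 and 290 CPM in Control. SSDS-shACOT12 3 and SSDS-GFP 3 were the lowest libraries and Control 3 the highest, and the groups overlapped in each contrast. Nr3c2 averaged 151 ± 49.9 CPM in SSDS-shACOT12 and 231 ± 53.8 CPM in Control (SD, n = 3 each), a log2 fold change of -0.61 ± 0.28 (SE, 95% interval -1.21 to -0.01, adjusted p = 0.200, edgeR). It was -0.41 ± 0.28 for SSDS-GFP and -0.37 ± 0.28 for CSDS against Control, and -0.20 ± 0.28 for SSDS-shACOT12 against SSDS-GFP. The last value was 0.02 without SSDS-shACOT12 3.

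The glucocorticoid receptor gene Nr3c1 (ENSMUSG00000024431, chromosome 18, 39410545 to 39491301, minus strand) was measured at 76.5, 87.5 and 37.2 CPM in SSDS-shACOT12, at 82.6, 93.5 and 64.6 CPM in SSDS-GFP, at 80.1, 88.9 and 79.6 CPM in CSDS and at 82.9, 65.7 and 109 CPM in Control. The single low library was again SSDS-shACOT12 3, at 600 counts, and all groups overlapped. The log2 fold change was -0.26 ± 0.27 for SSDS-shACOT12 against SSDS-GFP (SE) and 0.04 without that library. It was -0.36 ± 0.27, -0.10 ± 0.27 and -0.05 ± 0.27 for SSDS-shACOT12, SSDS-GFP and CSDS against Control, with adjusted p from 0.422 to 0.997 (edgeR). Both receptor genes are long, and long genes as a class were low in SSDS-shACOT12 3, where log2 CPM changed by -0.26 per 10-fold of gene length relative to the mean of all libraries. The same slope was 0.21 in Control 3, where both genes were highest. The part of this trend in the receptor values was not tested beyond the fit with the trend removed, which gave -0.54 for Nr3c2 and -0.28 for Nr3c1 in SSDS-shACOT12 against Control.

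The balance of the receptors was set out per library as the ratio of Nr3c2 to Nr3c1 FPKM, in which library depth cancels. It was 3.02, 1.99 and 3.13 in SSDS-shACOT12, 2.80, 2.67 and 1.85 in SSDS-GFP, 2.39, 2.55 and 2.48 in CSDS and 3.02, 3.23 and 3.07 in Control. CSDS and Control each fell in a narrow band and did not overlap, with log2 ratios of 1.31 ± 0.05 in CSDS and 1.63 ± 0.05 in Control (SD, n = 3 each). SSDS-GFP was also below Control without overlap, while SSDS-shACOT12 overlapped it. Of the other tested genes, the ratio to Nr3c1 lay below Control without overlap in 3.27% for CSDS in 3.85% for SSDS-GFP and in 1.37% for SSDS-shACOT12, and below SSDS-GFP in 0.367% for SSDS-shACOT12. An exact permutation test of 3 against 3 cannot go below a two-sided p of 0.1, and no test of the ratio was run. Cell content does not cancel in the ratio, and its part was not tested.

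**Figure D3:**
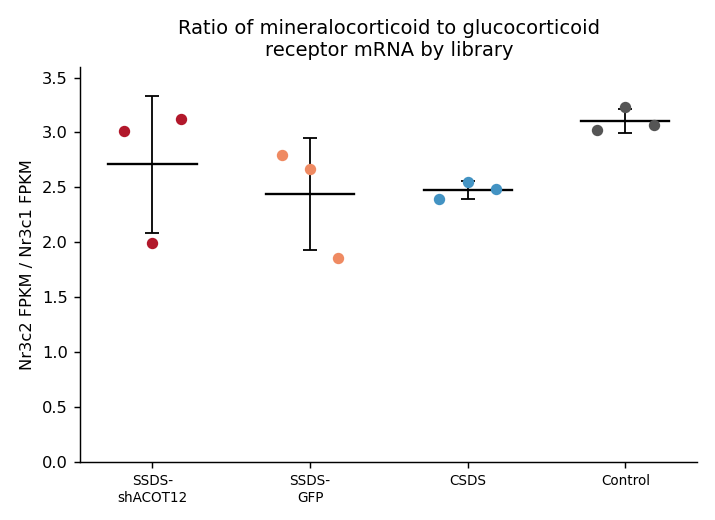
Ratio of Nr3c2 to Nr3c1 FPKM (vertical axis, from 0) in each of the 12 libraries; points are libraries 1, 2 and 3 from left to right, and lines and bars are the mean ± SD (n = 3). CSDS lies at 2.39 to 2.55 and Control at 3.02 to 3.23, while both SSDS groups spread more widely.

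Hsd11b1, which encodes 11-beta-hydroxysteroid dehydrogenase type 1 (ENSMUSG00000016194, chromosome 1, 193221634 to 193264075, minus strand), was the steadiest member. It was measured at 41.6, 36.5 and 38.0 CPM in SSDS-shACOT12, at 45.4, 39.9 and 31.5 CPM in SSDS-GFP, at 43.0, 41.6 and 34.1 CPM in CSDS and at 40.9, 40.2 and 46.4 CPM in Control. All groups overlapped. The log2 fold change was -0.01 ± 0.15 for SSDS-shACOT12 against SSDS-GFP (SE, 95% interval -0.33 to 0.31), and -0.14, -0.13 and -0.10 for SSDS-shACOT12, SSDS-GFP and CSDS against Control, each ± 0.15. Over the 4 contrasts the 95% intervals reached no lower than -0.45 and no higher than 0.31. Lamb3 overlaps Hsd11b1 on the opposite strand and Gm10649 overlaps Nr3c2 there, and reads of such pairs cannot be told apart without strand, but they had 376 and 843 counts over all 12 libraries.

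Over all 4 groups at once, no member passed the edgeR test for any difference (adjusted p = 0.179 for Crhbp and 0.417 to 0.876 for the other members), and 0.0887% of tested genes did. At an unadjusted p under 0.05 Crhbp passed alone among the members, as did 14.4% of tested genes. At that same unadjusted bound, 1 of 7 members passed in SSDS-shACOT12 against SSDS-GFP (4.53% of tested genes), 3 of 7 in SSDS-shACOT12 against Control (24.2%), 0 of 7 in SSDS-GFP against Control (15.2%) and 1 of 7 in CSDS against Control (5.87%). The DESeq2 likelihood ratio test called 1 of the 7 over the 4 groups (5.29% of tested genes), and the edgeR fit without SSDS-shACOT12 2 also called 1 (12.6%).

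Crhbp is known as a gene of somatostatin interneurons, so inhibitory neuron markers are given beside it. The 8 general inhibitory markers were all higher in SSDS-shACOT12 than in Control, with a median log2 fold change of 0.53 (0.12 against SSDS-GFP), and their summed level was 725 to 1029 CPM in SSDS-shACOT12, 696 to 858 CPM in SSDS-GFP, 764 to 774 CPM in CSDS and 705 to 759 CPM in Control. The summed levels overlapped, and 0 of 8 were called in each contrast. Sst, which encodes somatostatin, was measured at 254, 301 and 317 CPM in SSDS-shACOT12, at 230, 149 and 332 CPM in SSDS-GFP, at 190, 242 and 168 CPM in CSDS and at 128, 165 and 124 CPM in Control. It was thus higher in SSDS-shACOT12 than in Control without overlap (log2 fold change 1.06 ± 0.24, adjusted p = 0.0537, edgeR), but overlapped SSDS-GFP (0.29 ± 0.24). Gad1, which makes GABA, differed less, at 276 ± 58.9 CPM in SSDS-shACOT12 and 252 ± 10.3 CPM in Control (SD, n = 3 each). Gad2, the other GABA-synthesising enzyme, was at 121 ± 28.9 CPM in SSDS-shACOT12 and 87.6 ± 12.6 CPM in Control, and Slc32a1, the vesicular GABA transporter, at 69.7 ± 11.5 CPM in SSDS-shACOT12 and 44.7 ± 5.07 CPM in Control. Npy, a neuropeptide of several interneuron types and a member of the subtype list, reached 392 CPM in SSDS-shACOT12 3 and at most 64.6 CPM in the other libraries. Vip, of another interneuron class, was at 14.5 ± 1.51 CPM in SSDS-shACOT12 and 12.4 ± 3.14 CPM in Control. Pvalb, of fast-spiking interneurons, was at 55.1 ± 4.07 CPM in SSDS-shACOT12 and 37.3 ± 6.23 CPM in Control.

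Relative to Gad1, Crhbp was at 0.145, 0.108 and 0.162 in SSDS-shACOT12, 0.107, 0.0833 and 0.104 in SSDS-GFP, 0.104, 0.108 and 0.101 in CSDS and 0.0767, 0.101 and 0.0894 in Control. The SSDS-shACOT12 libraries had the highest of these CPM ratios, but SSDS-shACOT12 2 was above CSDS 2 only at the fourth decimal. Relative to the summed 8 inhibitory markers Crhbp was at 0.0344 to 0.0547 in SSDS-shACOT12, 0.0293 to 0.0360 in SSDS-GFP, 0.0345 to 0.0382 in CSDS and 0.0279 to 0.0321 in Control. On that measure SSDS-shACOT12 and CSDS lay above Control without overlap, and SSDS-shACOT12 overlapped SSDS-GFP and CSDS. How many tested genes were apart in ratios to Gad1 or to the summed markers was not counted, so how unusual this is cannot be said. In plain CPM, 14% of tested genes lay above Control without overlap in SSDS-shACOT12 and 10.2% in CSDS. Relative to Sst the order differed: Crhbp was at 0.118 to 0.147 of Sst in SSDS-shACOT12, 0.0802 to 0.153 in SSDS-GFP, 0.122 to 0.157 in CSDS and 0.146 to 0.186 in Control. In bulk tissue, more cells of a type and more RNA per cell cannot be told apart, and the part of interneuron content in the Crhbp values was not tested further.

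**Figure D4:**
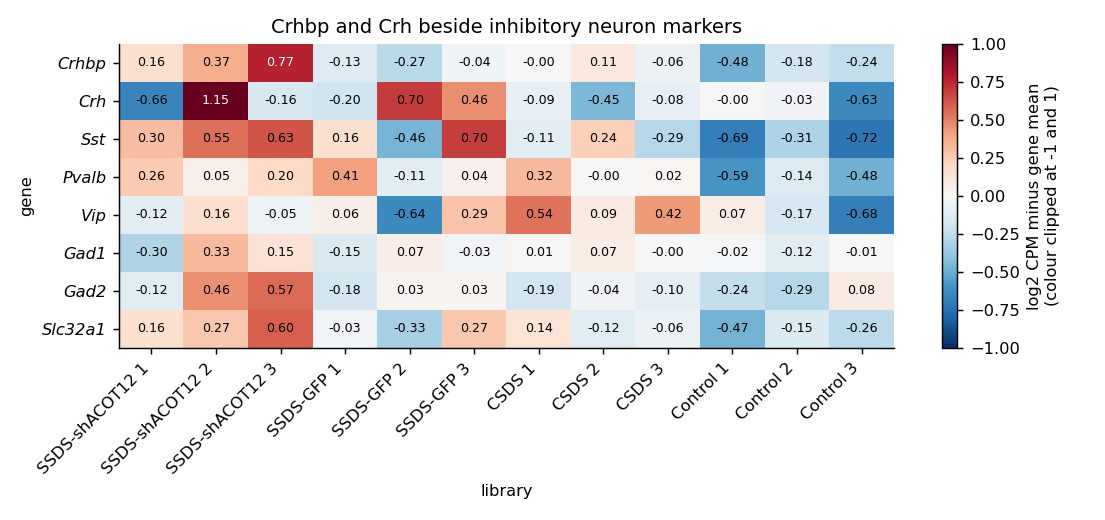
Log2 CPM minus the gene's mean over the 12 libraries (colour and printed value, colour clipped at -1 and 1) for Crhbp, Crh and 6 inhibitory neuron markers (rows) in each library (columns). Crhbp, Sst, Pvalb and Slc32a1 are above their means in the 3 SSDS-shACOT12 libraries and below them in the 3 Control libraries. Crh, Gad1, Gad2 and Vip are not, each being below its mean in SSDS-shACOT12 1, at -0.66, -0.30, -0.12 and -0.12. Gad2 is also above its mean in Control 3, at 0.08, and Vip in Control 1, at 0.07.

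Other genes of the pathway were counted over 6 lists of 54 genes, of which 46 had enough counts to be tested. In SSDS-GFP against Control 1 of 46 rose and 0 fell, beside 13 higher and 3 lower of the 16915 tested genes (0.0946%). This was Dusp1, a glucocorticoid-induced phosphatase of MAP kinases, at 25.5, 19.2 and 25.4 CPM in SSDS-GFP and 13.1, 12.1 and 10.8 CPM in Control (log2 fold change 0.96 ± 0.16, adjusted p = 0.0440, edgeR). The call did not hold without any 1 of the Control or CSDS libraries, or without SSDS-GFP 1 or 3. Dusp1 also passed the edgeR test for any difference among the 4 groups (adjusted p = 0.0392). In the other 3 contrasts 0 of 46 passed, beside 0.0828% of tested genes for SSDS-shACOT12 against Control and 0% for the other two. The median log2 fold change over the 46 was -0.08 for SSDS-shACOT12 against SSDS-GFP and -0.15, 0.05 and -0.05 for SSDS-shACOT12, SSDS-GFP and CSDS against Control, beside 0.01, 0.01, 0.006 and 0.001 over all tested genes.

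The 3 urocortins, Ucn, Ucn2 and Ucn3, which share the CRH receptors, had at most 3 counts in any library and were not tested. Avp, Oxt and Hsd11b2, the enzyme that inactivates corticosterone, also had too few counts. Adcyap1, which encodes the stress peptide PACAP, varied more than 10-fold within SSDS-shACOT12, at 1.48, 18.5 and 10.8 CPM, against 2.38, 11.2 and 14.98 CPM in SSDS-GFP, 7.39, 4.41 and 8.87 CPM in CSDS and 1.79, 2.99 and 1.13 CPM in Control. It was higher in CSDS than in Control without overlap but did not pass (log2 fold change 1.81 ± 0.77, adjusted p = 0.849, edgeR).

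Chaperones and co-chaperones of the corticosteroid receptors were above Control in 6 of 9 for SSDS-shACOT12, 8 of 9 for SSDS-GFP and 8 of 9 for CSDS. Hspa8, an Hsc70 chaperone, averaged 2478 ± 272 CPM in SSDS-shACOT12, 2481 ± 251 CPM in SSDS-GFP, 1740 ± 259 CPM in CSDS and 1454 ± 6.56 CPM in Control (SD, n = 3 each). Its log2 fold change was 0.77 ± 0.14 in each SSDS group against Control (adjusted p = 0.0531 for SSDS-shACOT12 and 0.0782 for SSDS-GFP, edgeR). Fkbp4, a co-chaperone that favours receptor transport, was at 192 ± 24.2 CPM in SSDS-shACOT12, 191 ± 29.8 CPM in SSDS-GFP, 148 ± 4.08 CPM in CSDS and 122 ± 6.21 CPM in Control. Stip1, which links Hsp70 and Hsp90, was at 241 ± 18.1 CPM in SSDS-shACOT12, 263 ± 30.7 CPM in SSDS-GFP, 198 ± 26.2 CPM in CSDS and 164 ± 4.04 CPM in Control. Hsp90aa1, an Hsp90 chaperone, was at 1055 ± 308 CPM in SSDS-shACOT12 and 1361 ± 292 CPM in SSDS-GFP, with overlap. The list median was 0.33 for SSDS-shACOT12, 0.30 for SSDS-GFP and 0.20 for CSDS against Control, but -0.002 for SSDS-shACOT12 against SSDS-GFP, with 0 of 9 called in each.

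Coregulators of the receptors were lower than Control in 7 of 8, 7 of 8 and 8 of 8 for SSDS-shACOT12, SSDS-GFP and CSDS, with medians of -0.24, -0.15 and -0.18 and 0 called. Ncor1, a corepressor, was at 176 ± 14.7 CPM in CSDS and 227 ± 23.4 CPM in Control (SD, n = 3 each). In SSDS-shACOT12 it was at 177 ± 17.8 CPM and in SSDS-GFP at 180 ± 23.3 CPM. Of the CRH receptor signalling list, Gnas, the stimulatory G protein, was at 106 ± 10.8 CPM in SSDS-shACOT12 and 70.3 ± 4.41 CPM in Control (log2 fold change 0.59 ± 0.12, adjusted p = 0.0531, edgeR). In SSDS-GFP it was at 95.9 ± 8.76 CPM and in CSDS at 76.7 ± 5.56 CPM. The adenylyl cyclase genes Adcy1 and Adcy9 were lower in CSDS than in Control without overlap, as 1707 of 16915 tested genes were. Adcy1 was at 613 ± 130 CPM in CSDS and 1143 ± 192 CPM in Control. Adcy9 was at 35.3 ± 3.17 CPM in CSDS and 63.1 ± 12.4 CPM in Control, with adjusted p = 0.849 for both genes (edgeR). Adcy1 was also below Control without overlap in SSDS-shACOT12, at 466 ± 273 CPM, and in SSDS-GFP, at 515 ± 91.8 CPM. Adcy9 was below Control without overlap in SSDS-GFP, at 35.7 ± 5.34 CPM, and overlapped Control in SSDS-shACOT12, at 43.1 ± 19.2 CPM. Of the 16915 tested genes, 1958 lay below Control without overlap in SSDS-shACOT12 and 1928 in SSDS-GFP. Adcy1 is abundant in dentate granule cells, whose summed markers were also lower outside Control, and their part in it was not tested.

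Of 10 glucocorticoid-induced genes, 8 were lower than Control in SSDS-shACOT12 (median -0.46), 6 in SSDS-GFP (-0.11) and 10 in CSDS (-0.37), and 7 were lower in SSDS-shACOT12 than in SSDS-GFP (-0.21). Apart from Dusp1 in SSDS-GFP, 0 were called. Control 2 was high for this list: the mean log2 CPM of the 10 genes, centred over the 12 libraries, was -0.39 to -0.24 in CSDS and 0.18, 0.85 and -0.23 in Control 1, 2 and 3, so that Control 3 was only just above the highest CSDS library. Tsc22d3, which encodes the glucocorticoid-induced leucine zipper, was at 37.3, 57.7 and 50.1 CPM in SSDS-shACOT12 and at 76.5, 74.0 and 82.2 CPM in SSDS-GFP. It was thus lower without overlap (log2 fold change -0.68 ± 0.27, adjusted p = 0.803, edgeR), as 437 of 16915 tested genes were. In Control it was at 46.4, 101 and 41.8 CPM, so that Control 2 alone stood above both SSDS groups. Nfkbia, an inhibitor of NF-kB, was at 16.9 ± 3.16 CPM in SSDS-shACOT12 and 24.4 ± 5.38 CPM in SSDS-GFP (SD, n = 3 each; log2 fold change -0.53 ± 0.21, adjusted p = 0.803, edgeR). Of the steroid metabolism list, Akr1c14, a hydroxysteroid dehydrogenase, was at 1.53 ± 0.619 CPM in SSDS-shACOT12 and 2.31 ± 0.428 CPM in SSDS-GFP, with overlap, and 0 of 5 tested genes were called in any contrast. Plin4, a lipid droplet protein, was at 2.07 ± 1.58 CPM in CSDS and 18.6 ± 21.3 CPM in Control, a gap set by high Control libraries. In SSDS-shACOT12 it was at 2.47 ± 0.595 CPM and in SSDS-GFP at 2.45 ± 0.0166 CPM.

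**Figure D5:**
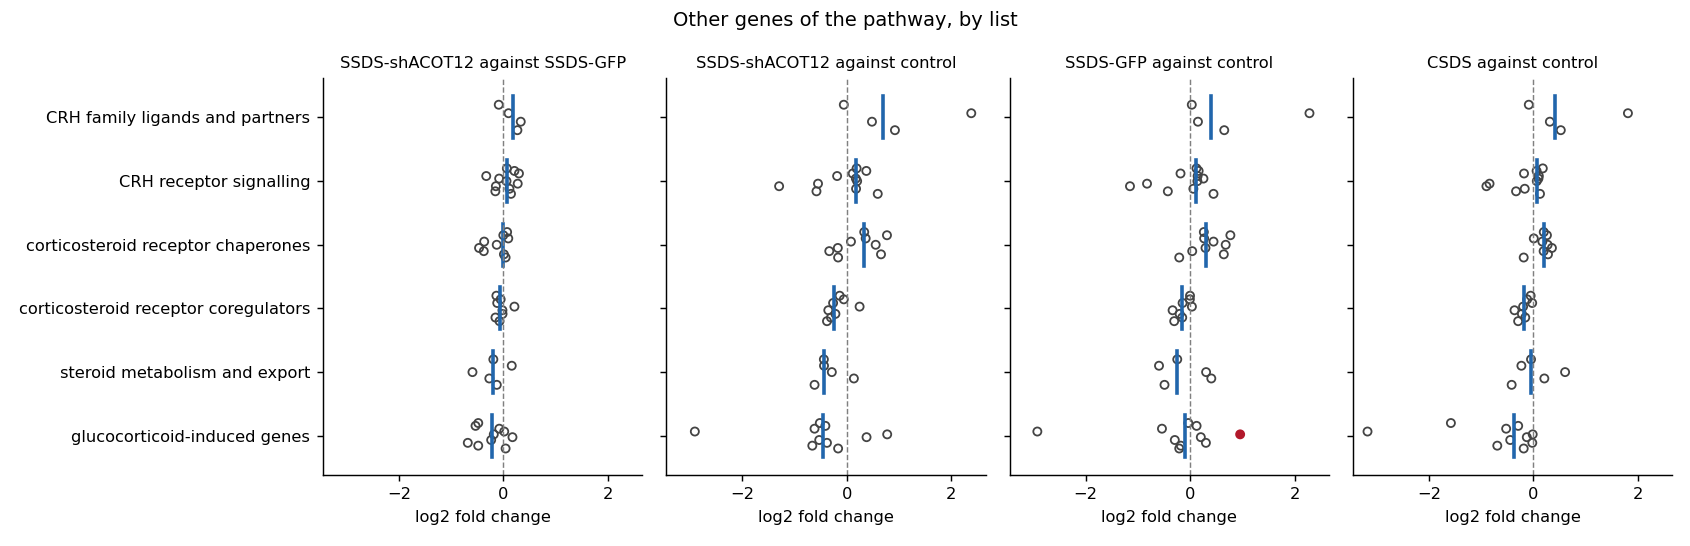
Log2 fold change (horizontal axes) of the 46 tested genes of 6 pathway lists (rows) in the 4 contrasts; open circles are genes with adjusted p of 0.05 or more, the filled circle is the gene below it, and blue lines are list medians. Dusp1 in SSDS-GFP against Control is the filled point.

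Across the 12 libraries, the genes with the pattern most like each member were named by Pearson r of log2 CPM among 13637 or 13638 other genes, as a description. They were Atp2b1, Sntg1 and Zbtb18 for Nr3c2 (r = 0.98, 0.97 and 0.97), and Tmem200a, Cep68 and Pcdhb11 for Nr3c1 (0.94 each). For Crhbp they were Nat8f1, Pxk and Slc45a4 (0.95, 0.92 and 0.91), and for Crhr1 Repin1, Itga10 and Sirt7 (0.92, 0.91 and 0.91). For Crh they were Vgll3, Plagl1 and Gprasp2 (0.94, 0.94 and 0.92), for Hsd11b1 Copg2, Zfyve9 and Fyb2 (0.91, 0.90 and 0.87), and for Crhr2 Frg2f1, Parl and Parn (0.84, 0.83 and 0.83). By Spearman rank, Nat8f1 stayed among the top 3 for Crhbp and Itga10 for Crhr1, and none of the 3 did for the other 5 members. The libraries share depth, gene length trends and group structure, so these values do not separate the members' own changes from those.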

How the data were processed

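Gene counts and FPKM for 12 ventral hippocampus libraries were used as the authors deposited them. Per the submitters' processing notes, HISAT2 2.0.5, featureCounts 1.5.0-p3 and DESeq2 (no version) were used with the mm10 build; strand setting, annotation release and filters are not given in the sources used here. The NEBNext Ultra kit used for the libraries does not mark strand. The deposited FPKM values scale the counts by gene length and by a library size 0.958 to 1.06 times the total, and gene length in bases is given per the file headers.

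The counts were analysed with edgeR 4.0.16 in R 4.3.3. Genes passing filterByExpr (minimum count 10, minimum total 15) numbered 16915 of 54532, with TMM scaling and a quasi-likelihood fit of group to all 12 libraries. Adjusted p-values are 2-sided, Benjamini-Hochberg over all tested genes, and called means under 0.05. No member was filtered out. The fit was also run on simulated counts. These held no libraries set apart and no gene length trends, so that run does not bear on either. Alternatives used DESeq2 1.42.0, limma 3.58.1, other filters and scalings, and each library left out. Of these, 3 were chosen after seeing the data: leaving out 3 libraries, a replicate block in the SSDS libraries alone, and removing length trends. Members and lists were chosen with earlier results of these data known. Named pathway genes were those called, and otherwise the 4 with the smallest p per contrast; Adcyap1 and the untested ligands were named after their values were seen. Levels are CPM of the scaled library unless FPKM is named; 0.1 or 1 was added to FPKM before log2 in limma-trend.

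Libraries of the same number in SSDS-shACOT12 and SSDS-GFP deviated together from their group means (r = 0.20, 0.42 and 0.35, each past 0.1), and a paired comparison was made as well. The labels do not say what a number shares. Over all groups, 11 of 36 pairs of different number also passed that bound. Between SSDS-shACOT12 and SSDS-GFP none did, with r from -0.38 to -0.02 for pairs of different number. Intervals cover the spread between libraries. Member coordinates are those of the files.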

Additional observations from a re-analysis of the deposited data

How the results depend on the processing

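Most log2 fold changes of the members kept their direction and their side of the threshold: 606 of 651 values over all members, contrasts and alternatives did. In 13 a member newly passed, all of them in SSDS-shACOT12 (Crhbp, Crhr1 and Nr3c2 against Control, Crhbp against SSDS-GFP), and 32 had the opposite sign. The cause of each change was not tested. The fit without the 3 libraries apart kept SSDS-shACOT12 2 as the only library of its group. For SSDS-shACOT12 against Control edgeR called 0 members, DESeq2 called 1 (11.3% of all genes tested in that fit), no filter 3 (5.31%), limma-voom with library weights 2 (24.7%) and leaving out the 3 libraries apart 1 (4.1%). Leaving out single libraries called 0 to 2 there, 0 to 1 against SSDS-GFP and 0 to 1 for any difference among groups, the highest each time without SSDS-shACOT12 2 (24.5%, 5.7% and 12.6% of tested genes). For any difference the DESeq2 likelihood ratio test (5.29%) and the fit with no filter (4.45%) called 1 each.

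Of the pathway genes, CSDS against Control called 0, but 6 with no filter (0.403% of tested genes), 3 on the 6 libraries compared (0.515%) and 2 without the 3 libraries apart (0.167%). SSDS-GFP against Control called 1, against 9 with DESeq2 (3.61%), 9 with no filter (1.85%), 2 on 6 libraries (0.21%), 11 with limma-voom (13.2%), 8 without the 3 libraries apart (1.21%), 0 with limma-trend on FPKM (either constant) or with length trends removed, and 0 to 4 without single libraries. SSDS-shACOT12 against Control called 0, against 9 with DESeq2, 14 with no filter, 14 with limma-voom, 9 without the 3 libraries apart, 1 with length trends removed (0.065%) and 0 to 13 without single libraries; the other shares are as for the members. SSDS-shACOT12 against SSDS-GFP called 0 to 3 without single libraries (0% to 5.7% of tested genes). Without single libraries, 0.0231% to 0.642% of tested genes were called in SSDS-GFP against Control. In SSDS-shACOT12 against Control these shares were 0.00577% to 24.5%. In SSDS-GFP against Control, limma-trend on FPKM called 0.0709% of tested genes with either constant, and 0.0946% with length trends removed. With the replicate block the 1 pathway call in SSDS-GFP against Control became 0. No member call changed with the block, and Crhbp in SSDS-shACOT12 against SSDS-GFP was 0.58 (adjusted p = 0.507) with the replicate block among 6 libraries.

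Opposite signs arose as follows. For CSDS against Control, Crh was -0.0017 with no filter, -0.0028 without mitochondrial genes and -0.092 with length trends removed (-0.17 to 0.11 without single libraries), and Nr3c1 was 0.041 with length trends removed (-0.20 to 0.16). For SSDS-shACOT12 against SSDS-GFP without the 3 libraries apart, Crh was 0.83, Crhr1 -0.16 and Crhr2 -0.11; Hsd11b1 was 0.0057 with the replicate block and 0.0034 with length trends removed. Without single libraries that contrast ranged from -0.76 to 0.27 for Crh, -0.53 to 0.92 for Crhr2, -0.51 to 0.038 for Nr3c1, -0.47 to 0.022 for Nr3c2 and -0.14 to 0.12 for Hsd11b1. For SSDS-GFP against Control, Nr3c1 was 0.045 without the 3 libraries apart and 0.013 with length trends removed (-0.25 to 0.11 without single libraries), and Hsd11b1 was 0.011 without the 3 libraries apart (-0.27 to 0.0090). For SSDS-shACOT12 against Control, Crh was -0.055 with limma-voom (-0.19 to 0.84 without single libraries) and Nr3c1 was 0.042 without the 3 libraries apart. Adding 0.01 to FPKM left each receptor ratio within its spread between libraries. Depth limits Crh and Crhr2.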
